A study of Rattus norvegicus with 9 samples.

Results

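The genes that let the intercalated cells of the renal collecting duct secrete acid or base were examined in rat kidneys after warm ischaemia, with or without cold perfusion. These are 10 genes, chosen by name, out of 26115 gene names on the array. They are measured by 11 array features out of 30367, a feature being 1 probe design that may be printed as several spots. All 11 passed the filter on dim features, as did 15837 features in all. The 5 proton pump subunits are Atp6v0d2, Atp6v1b1, Atp6v0a4, Atp6v1g3 and Atp6v1c2. The other genes are the anion exchangers Slc26a4 and Slc4a9, the ammonia channel Rhcg, the carbonic anhydrase Car2 and the transcription factor Foxi1.

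Each array measured RNA from whole kidney tissue of the Fisher F344 rat, labelled with Cy3 and read in 1 colour. The 5 NP kidneys had 20 min. of warm ischaemia by arterial clamping, of the aorta in the labels' account and of the renal artery in the study's methods, and were then taken, by the treatment label, without perfusion. The 4 MSC kidneys had the same ischaemia followed by 4 hrs of continuous perfusion at 4°C with Belzer solution (BS) that carried 3000000 mesenchymal stromal cells (MSC). These were bone marrow cells of transgenic Sprague Dawley rats expressing EGFP, a green fluorescent protein. Perfusion and MSC thus came together, and the part of each cannot be told apart. For the NP kidneys the labels conflict, since 1 field gives no perfusion while the titles name perfusion with BS, and the study's own name is kept. The ages of the rats are not given in the sources used here. In these labels a replicate is an array of its own, and the study's methods describe removal of the left kidney of a donor rat.

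Intercalated cells lie scattered among the principal cells of the collecting duct and connecting tubule. Inside them carbonic anhydrase makes a proton and a bicarbonate ion from carbon dioxide and water. In type A cells the vacuolar proton pump (V-ATPase) sends the proton into the urine, whereas type B cells return it to the blood and send bicarbonate into the urine through pendrin, the product of Slc26a4. The pump has a membrane part (V0), through which protons pass, and a part that splits ATP (V1). Several of its subunits exist in a form found in most cells and in another that is enriched in kidney, inner ear or epididymis. Foxi1 is a forkhead factor that intercalated cells need to form, and several pump subunit and exchanger genes are among its known targets.

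The readout is the binding of labelled RNA to designed oligos. Those for the 3 genes with the highest fold changes in MSC kidneys are printed here from the array files, 5′ to 3′, in lower case since the whole oligo binds. The stretch targeted for Slc26a4 covers 1060 bases of the genome and that for Rhcg 4114 bases, both more than the 60 bases of the oligo, so that both read across a spliced intron.
Atp6v0d2: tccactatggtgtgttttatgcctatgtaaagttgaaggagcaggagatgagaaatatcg
Slc26a4: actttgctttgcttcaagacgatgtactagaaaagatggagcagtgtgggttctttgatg
Rhcg: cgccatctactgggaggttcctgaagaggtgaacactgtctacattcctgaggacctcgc

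A feature counts as called here where its FDR is below 0.05 and its fold change above 1.5. None of the 11 was, and neither was any other feature on the array (0 of 15837, 0%). The smallest FDR of all was 0.104. This differs from the study, which at the same thresholds called Tmem52b and Calb1 higher in MSC kidneys. Here their brightest features had FDRs of 0.639 (Tmem52b) and 0.231 (Calb1) by limma. All 11 features had a higher mean in MSC kidneys, against 48.8% of all features tested. Among them the second Foxi1 feature was above the filter on 4 MSC but only 2 NP arrays, so the filter favoured a higher MSC mean there. The median log2 fold change, MSC over NP, was 0.58 over the 10 genes and -0.0048 over all features. At an unadjusted p under 0.05 (limma), 6 features were higher and 0 were lower, where 6.49% of all features were higher and 5.13% lower. In 4 genes, namely Atp6v0d2, Atp6v1b1, Atp6v1g3 and Rhcg, every MSC array lay above every NP array, as it did for 3.11% of all features. In tissue RNA, fewer cells of a type and less RNA per cell cannot be told apart.

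With any 1 array left out, 6 to 7 features had an unadjusted p under 0.05 and 4 to 6 had no overlap. In those fits 4.92% to 7.3% of all features were higher at that p. The share of all features without overlap was not counted there, and fewer arrays make non-overlap easier. NP replicate 2 had the lowest NP value in 8 of the 10 genes, and in 8 genes NP replicates 2 and 3 were the lowest NP arrays. MSC replicate 4 had the highest MSC value in 7 genes. With each array left out in turn, the median log2 fold change of the 10 genes ran from 0.44 to 0.70. Array scaling mattered for the non-overlap, which held for 2 of these features with the 75th percentile of each array as the scale and for 0 with the median. With the median as the scale, 4 features had an unadjusted p under 0.05 by limma, where 2.14% of all features were higher.

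**Figure D1:**
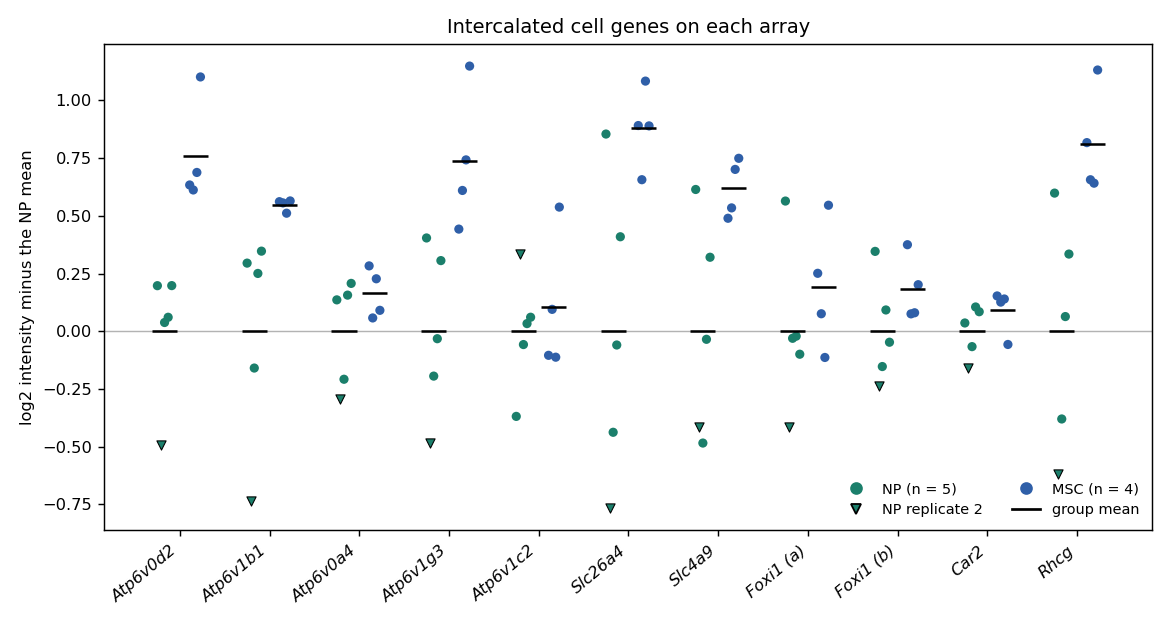
Level of the 11 array features on each of the 9 arrays, as log2 intensity minus the mean of the 5 NP arrays, with NP in green, MSC in blue and the group mean as a black line. Triangles mark NP replicate 2, which was the lowest NP array in 8 of the 10 genes, and the MSC points of Atp6v0d2, Atp6v1b1, Atp6v1g3 and Rhcg all lie above the NP points; (a) and (b) are the features of Foxi1.

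Among the pump subunits of the membrane part, Atp6v0d2, which encodes the d2 subunit found in kidney and in bone-resorbing osteoclasts, had the smallest p of the 10 genes. Its feature at chr5:34476269-34476328 (rn4, minus strand) read 12.01, 11.32, 11.85, 11.88 and 12.01 on NP arrays 1 to 5, on the log2 scale of normalized intensity. On MSC arrays 1 to 4 it read 12.45, 12.43, 12.50 and 12.92. The groups did not overlap, with NP replicate 2 below the other NP arrays and MSC replicate 4 above the other MSC arrays. The log2 fold change was 0.76 (SE 0.16, 95% interval 0.40 to 1.11), which is 1.69-fold, with an unadjusted p of 0.00080 and an FDR of 0.334 by limma. Atp6v0d2 ranked 31 of the 15837 features by p. The study singled out this gene on these same arrays, so its place is not independent evidence. By RT-PCR the study compared treated kidneys with kidneys perfused with BS alone. There Atp6v0d2 mRNA was higher in kidneys given extracellular vesicles of MSC, but not in those given MSC. The SD between kidneys was 0.29 in NP and 0.23 in MSC, and that between the 10 spots of an array had a median of 0.120, all in log2 units.

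Atp6v0a4 encodes the kidney form of the a subunit, which spans the membrane and whose loss causes distal renal tubular acidosis in people. Its feature at chr4:65589121-65589180 (rn4, minus strand) read 15.82 to 16.31 on NP arrays and 16.16 to 16.39 on MSC arrays, and the groups overlapped. The log2 fold change was 0.16 (SE 0.12, 95% interval -0.11 to 0.44, FDR 0.617 by limma), and 0.092 without NP replicate 2.

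In the part that splits ATP, the 3 kidney-enriched forms did not share one pattern. Atp6v1b1, the B1 subunit, whose loss also causes distal renal tubular acidosis, was measured at chr4:117949969-117950028 (rn4, plus strand). It read 13.45, 12.43, 12.999, 13.41 and 13.51 on the NP arrays and 13.72, 13.71, 13.67 and 13.72 on the MSC arrays. The MSC values lay close together, with an SD of 0.02 against 0.46 in NP kidneys. MSC kidneys had a log2 fold change of 0.55 (SE 0.20, 95% interval 0.09 to 1.00) or 1.46-fold, at an unadjusted p of 0.0226 and an FDR of 0.374 by limma. Without NP replicate 2, the lowest array, it was 0.36.

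Atp6v1g3, the kidney form of the G subunit in the stalk of the pump, was measured at chr13:51475798-51475857 (rn4, plus strand). The NP arrays read 12.45, 11.56, 11.85, 12.01 and 12.35 and the MSC arrays 12.49, 12.65, 12.79 and 13.19. MSC replicate 1 was only just above NP replicate 1, so the groups were separate by a narrow margin. The log2 fold change was 0.74 (SE 0.20, 95% interval 0.29 to 1.18), 1.66-fold, with an unadjusted p of 0.00425 and an FDR of 0.334 by limma.

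Atp6v1c2, a C subunit form of kidney and lung, went with neither of these. Its feature, which the files put on an unplaced piece of chromosome 6, read 10.31 to 11.01 in NP and 10.57 to 11.22 in MSC kidneys. Here NP replicate 2, low for most of the other genes, was the highest NP array. The log2 fold change was 0.10 (SE 0.17, 95% interval -0.27 to 0.47, FDR 0.839 by limma) and was -0.04 without MSC replicate 4.

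The anion exchangers had wide NP ranges. Slc26a4 encodes pendrin, the exchanger of chloride for bicarbonate at the urinary face of type B cells. Its feature at chr6:49394773-49395832 (rn4, minus strand) read 12.04, 10.42, 10.74, 11.12 and 11.59 on the NP arrays and 12.07, 11.84, 12.26 and 12.07 on the MSC arrays. NP replicate 1 lay inside the MSC range, unlike the other NP arrays, and 3 of the 4 MSC arrays were above all NP arrays. The log2 fold change of 0.88 (SE 0.29, 95% interval 0.23 to 1.52), or 1.84-fold, was the highest of the 10 genes, at an unadjusted p of 0.0125 and an FDR of 0.334 by limma. The SD between NP kidneys was 0.65 and that between MSC kidneys 0.17, with a median SD of 0.101 between the 10 spots of an array.

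Slc4a9 encodes AE4, a bicarbonate transporter of the blood-facing side of type B cells. At chr18:29179037-29179466 (rn4, plus strand) it read 11.37, 10.34, 10.28, 10.72 and 11.08 in NP kidneys and 11.25, 11.29, 11.46 and 11.51 in MSC kidneys. NP replicate 1 lay inside the MSC range. For MSC over NP the log2 fold change was 0.62 (SE 0.21, 95% interval 0.14 to 1.096), 1.53-fold, with an unadjusted p of 0.0163 and an FDR of 0.347 by limma.

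Rhcg encodes the channel through which the collecting duct passes ammonia into the urine, where it takes up the secreted protons. At chr1:135362944-135367057 (rn4, minus strand) the NP arrays read 13.46, 12.25, 12.48, 12.93 and 13.20 and the MSC arrays 13.68, 13.52, 13.51 and 13.996. The groups did not overlap, and NP replicate 1 was just below the lowest MSC arrays. In MSC kidneys the log2 fold change was 0.81 (SE 0.24, 95% interval 0.28 to 1.34), 1.75-fold, at an unadjusted p of 0.00643 and an FDR of 0.334 by limma.

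Car2 and Foxi1 were the genes with little difference besides Atp6v0a4 and Atp6v1c2. Car2, carbonic anhydrase II, which also works in the proximal tubule and in red cells, read 14.92 to 15.18 in NP and 15.02 to 15.23 in MSC kidneys at chr2:88077739-88077798 (rn4, minus strand). Its log2 fold change of 0.09 had a 95% interval of -0.10 to 0.28 (FDR 0.695 by limma), and was 0.051 without NP replicate 2 and 0.14 without MSC replicate 4. The Foxi1 feature at chr10:19185934-19185993 (rn4, minus strand) read 11.83 to 12.81 in NP and 12.13 to 12.79 in MSC kidneys, a log2 fold change of 0.19 (95% interval -0.24 to 0.62, FDR 0.724). This was 0.33 without NP replicate 1, 0.087 without NP replicate 2, 0.29 without MSC replicate 3 and 0.071 without MSC replicate 4. The other Foxi1 feature, at chr10:19187049-19187108, gave 0.18 (95% interval -0.10 to 0.46, FDR 0.585), and from 0.12 to 0.27 with an array left out. It was above the dimness filter on 2 NP and 4 MSC arrays, whereas the remaining 10 features were above it on all 9. With the background-subtracted signal this dim feature gave 0.60. The interval of Car2 leaves out a 1.5-fold increase, and that of the first Foxi1 feature does not.

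**Figure D2:**
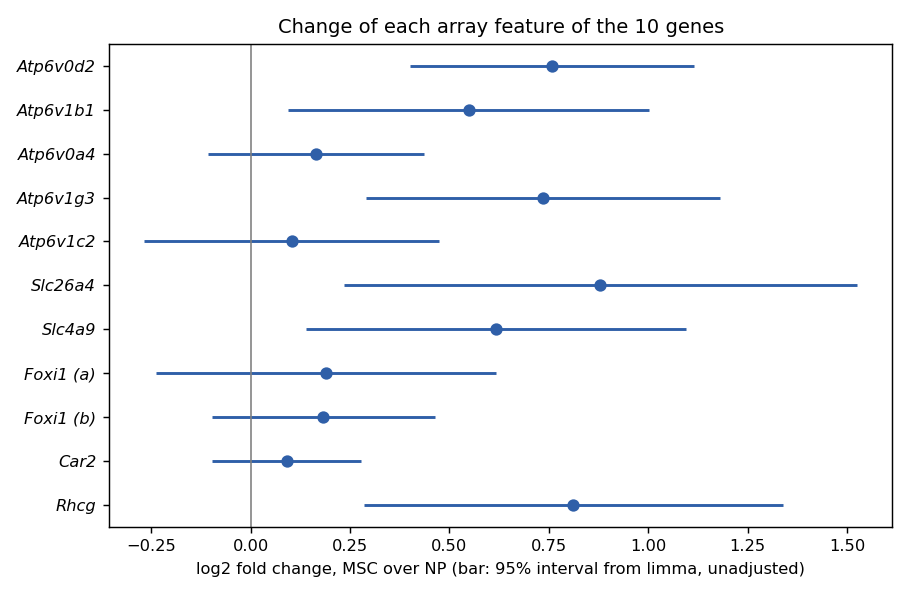
Log2 fold change, MSC over NP, of each of the 11 array features (points), with the 95% interval from limma without adjustment (bars) and no difference at 0. The intervals of Atp6v0d2, Atp6v1b1, Atp6v1g3, Slc26a4, Slc4a9 and Rhcg lie above 0 and the others include it; none passed the FDR threshold.

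The arrays were spread over 2 slides that each held both groups. For Atp6v0d2 the MSC minus NP difference was 0.71 on slide 1 and 0.76 on slide 2, and for Slc26a4 it was 0.89 and 0.81. Rhcg gave 0.87 and 0.69, Atp6v1g3 0.62 and 0.81, and Slc4a9 0.61 and 0.58, all on the log2 scale. The mean of these 5 genes was higher in MSC kidneys on either slide, each with 2 or 3 arrays a group. Atp6v1b1 differed by 0.76 on slide 1 and 0.24 on slide 2. No difference between slides was tested. For Car2 the values were 0.20 and -0.05 and for Atp6v0a4 0.29 and -0.02, so their direction turned on slide 2.

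A kidney-enriched pump subunit and its widely expressed form were compared inside each array, which asks whether both differed alike between the groups. In tissue RNA this cannot tell a change within the pump from a change in cell types, since the forms are not found in the same cells. These are 5 comparisons, chosen with earlier results of these arrays known, and their two-sided exact permutation p-values over 126 assignments of arrays (smallest possible p 0.00794) are not adjusted. The log2 value of Atp6v0d2 minus that of Atp6v0d1, the common d subunit, was 0.52 higher in MSC than in NP kidneys (exact p = 0.0159). That of Atp6v1b1 minus Atp6v1b2 was 0.40 higher (exact p = 0.0159). Relative to Atp6v0a1, Atp6v0a4 was 0.46 higher in MSC than in NP kidneys (exact p = 0.0397). In each of these pairs the 4 MSC arrays were all above the NP arrays. For Atp6v0a4 the partner had the larger log2 fold change, -0.29 for Atp6v0a1 against 0.16.

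Relative to Atp6v1g1, Atp6v1g3 was 0.80 higher in MSC than in NP kidneys (exact p = 0.0317), with 3 of the 4 MSC arrays above all NP arrays. Atp6v1c2 and Atp6v1c1 differed by -0.01 (exact p = 0.992), with log2 fold changes of 0.10 and 0.11. The common forms themselves had log2 fold changes of 0.24 for Atp6v0d1, 0.15 for Atp6v1b2 and -0.06 for Atp6v1g1. The exact p of the pair of Atp6v0d2 stayed between 0.00794 and 0.0286 in all 14 alternatives tried. That of Atp6v0a4 rose as high as 0.107, that of Atp6v1g3 to 0.0571 and that of Atp6v1b1 to 0.0556, mostly with an array left out, which also raises the smallest p that can be had.

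**Figure D3:**
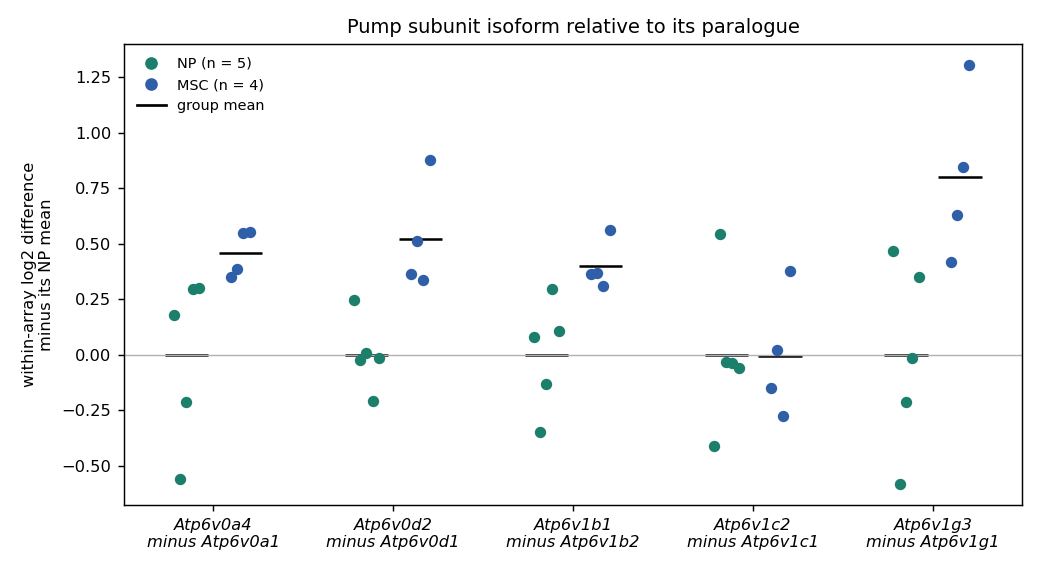
Within-array log2 difference between each kidney-enriched pump subunit and its widely expressed form, minus the NP mean of that difference, for the 5 NP (green) and 4 MSC (blue) arrays, with group means as black lines. The MSC points stand above all NP points for the subunits a4, d2 and B1, 3 of 4 do for G3, and they mix for C2.

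Across the remaining 18 pump subunits tested (of 20 on the array), the median log2 fold change was 0.14. Here 4 had an unadjusted p under 0.05 and were higher, and 1 was lower. The higher ones include Atp6v1a, the catalytic A subunit (0.26, whereas its other feature gave 0.08 with an unadjusted p of 0.626), Atp6ap2, the prorenin receptor (0.38), and Atp6v1h, which couples the parts of the pump (0.37). The lower one was Atp6v0a1. Atp6v0c, the proton-binding ring subunit and the brightest feature of the list, had 0.22 (unadjusted p 0.0684). The values of the list thus ran below those of Atp6v0d2, Atp6v1g3 and Atp6v1b1. Those of Atp6v0a4 (0.16) and Atp6v1c2 (0.10) lay within the range of the list. For 7 genes of pump assembly and regulation the median was -0.07, and 0 had a p under 0.05 (Rogdi -0.13, Tmem199 0.17, Dmxl2 0.17).

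Other genes known from intercalated cells, 17 tested of 22 on the array, had a median of 0.13 with 3 higher and 0 lower at an unadjusted p under 0.05. Among them were Rhbg, the ammonia transporter of the blood-facing side (log2 fold change 0.70, p 0.00531), and Hepacam2 (0.51, p 0.0209), both by limma. Atp4a, Insrr, Oxgr1, Slc26a7 and Slc4a8 did not pass the filter. Genes of bicarbonate and ammonia handling in the proximal tubule had a median of 0.05, with 0 of 9 at a p under 0.05 (Car14 0.17, Slc9a3 0.08, Slc38a3 -0.10, Glud1 -0.02).

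Markers of neighbouring cells also had higher values in MSC kidneys, with exceptions. Principal cell genes had a median log2 fold change of 0.30, with 4 of 10 higher at an unadjusted p under 0.05, among them the sodium channel subunits Scnn1b (0.97) and Scnn1g (0.61) and Hsd11b2 (0.63), while the water channel Aqp2 had 0.13. For the distal convoluted and connecting tubule the median was 0.41, with 4 of 8 higher and 1 lower. The higher ones were the calcium-binding protein Calb1 (1.13), the channel Trpv5 (0.41), the exchanger Slc8a1 (0.52) and Slc12a3 (0.41), and the lower one was S100g (-0.33). Klk1 had 0.67 (unadjusted p 0.058 by limma), Tmem52b 0.28 and Trpm6 0.03. Thick ascending limb genes had a median of 0.14, with 2 of 7 higher (Egf 0.65, with 1.37 for its other feature, Slc12a1 0.50, Cldn16 -0.33, Umod 0.14). Proximal tubule genes had 0.17, with 2 of 8 higher (Slc5a2 0.44, Aqp1 0.24, Slc5a12 0.51, Slc13a3 0.11). No feature of these lists was called. The summed linear intensity of the principal cell list was 412500 to 492900 in NP and 447700 to 668500 in MSC kidneys, and that of the list for the distal convoluted and connecting tubule 86680 to 177200 and 164900 to 188800. The part of these cell types in the values of the 10 genes was not tested.

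Lists from outside the tubule were read in the same way. Red cell genes had a median of -0.90, with 2 of 6 lower (Alas2 -1.74, Ahsp -0.80; Hbb-b1 -1.27, Hba1 -0.72, with -1.61 and -1.80 for the other features of these globins) and 0 higher. Their summed intensity was 737100 to 1030000 in NP and 116000 to 942900 in MSC kidneys, and Epb42 and Rhag were not well above background on any array. Fat genes had a median of 1.23, with 2 of 5 higher (Cidec 0.36, Adipoq 1.43, Fabp4 1.23, Lpl 0.15), a sum of 8268 to 11510 in NP and of 8662 to 42050 in MSC kidneys, and Lep not well above background on any array. Macrophage and osteoclast genes, listed since osteoclasts also carry Atp6v0d2 and Car2, had a median of 0.22 with 0 of 10 at a p under 0.05 (Acp5 0.17, Emr1 0.41, Csf1r 0.20, Lyz2 0.32). Their sum was 114700 to 189200 in NP and 146000 to 193600 in MSC kidneys. The part of these cells in the result was not tested.

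**Figure D4:**
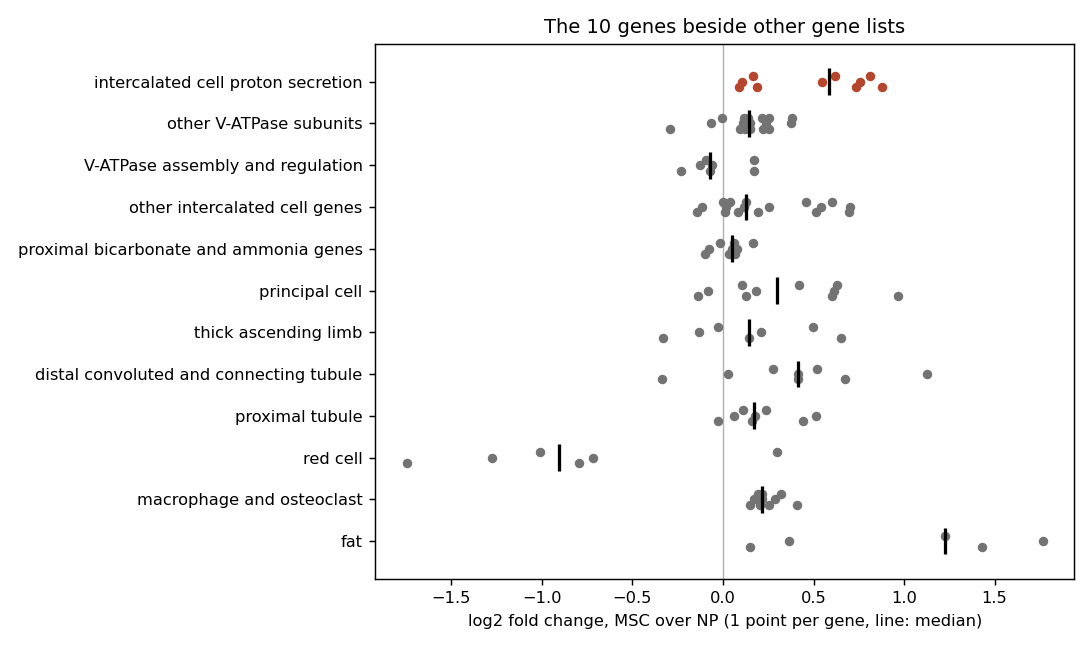
Log2 fold change, MSC over NP, of the tested genes in each list (1 point per gene by its brightest feature), with the list median as a black line and the 10 intercalated cell genes in red. Their median of 0.58 is above those of the tubule lists, which run from 0.05 to 0.41, and below that of the fat list at 1.23; red cell genes have a median of -0.90.

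Most of the 10 genes varied together over the 9 arrays once the mean of each group was removed, and the NP arrays had the wider spread for Slc26a4 (SD 0.65 against 0.17), Atp6v1b1 (0.46 against 0.02) and Rhcg (0.50 against 0.23). The 45 pairs of genes had a Pearson's r over 9 arrays from -0.69 to 0.95, with a median of 0.68, and 36 pairs were above 0. Rhcg followed the mean of the other genes most closely (r = 0.983), then Atp6v1g3 (0.909) and Slc4a9 (0.895). Atp6v1c2 ran the other way (-0.386), and Car2 followed loosely (0.401). These correlations are given as a description, since the points share arrays, dissection and normalization. Features outside the lists were also ranked, leaving out those named only by a probe, an accession or a provisional name such as LOC or RGD. The nearest to the mean of the 10 genes were Prkcz (0.990), Degs2 (0.990), Prkar1b (0.989), Itgb5 (0.988) and Sorl1 (0.982). Their log2 fold changes were 0.22, 0.53, -0.08, -0.02 and 0.35, with none of them called.

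Since Foxi1 binds forkhead sites, the promoters were searched for the letters TGTTTAC and, shorter, TGTTTA, on both strands. The shorter motif lies inside the longer. RefSeq promoters (GRCr8), which run from 250 bases before the start site to 50 after it, were at hand for 7 of the genes, the others being Atp6v0d2, Atp6v0a4 and Car2. TGTTTAC was in 1 of the 7, against 3.78% of 33469 promoters, and TGTTTA in 2 of the 7, against 13.7%. The 250 bases before the start site are printed for those 2 genes, both pump subunits with separate groups, in lower case with the motif in capitals.
Atp6v1b1, chr4:117781194-117781443, plus strand: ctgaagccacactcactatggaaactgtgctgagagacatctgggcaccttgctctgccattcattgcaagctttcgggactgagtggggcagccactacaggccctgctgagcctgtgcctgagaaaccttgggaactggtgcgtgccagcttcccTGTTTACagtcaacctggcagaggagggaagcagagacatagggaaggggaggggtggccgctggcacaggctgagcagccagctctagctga
Atp6v1g3, chr13:52362082-52362331, plus strand: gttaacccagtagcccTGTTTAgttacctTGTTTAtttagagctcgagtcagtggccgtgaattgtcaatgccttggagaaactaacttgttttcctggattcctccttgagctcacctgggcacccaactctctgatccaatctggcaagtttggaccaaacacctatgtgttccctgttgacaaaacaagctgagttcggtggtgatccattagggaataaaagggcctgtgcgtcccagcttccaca

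In Atp6v1b1 the motif begins at position -93, counted back from the start site, and in Atp6v1g3 the copies begin at -234 and -221. A match is a run of letters and no measured site. The promoters of Slc26a4, Slc4a9 and Rhcg, with log2 fold changes of 0.62 to 0.88, do not hold these letters in the window, nor do those of Atp6v1c2 and Foxi1.

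The median raw intensity was 594 to 895 on NP arrays and 577 to 917 on MSC arrays, and 67.7% to 72.9% and 65.6% to 74.3% of features were well above background. MSC replicate 4, the highest MSC array in 7 of the genes, had the lowest values of both and 593 outlier spots, against 273 to 453 on the other arrays. Without that array the median log2 fold change of the 10 genes was 0.56, against 0.58 with it. All 11 features of these genes were well above background on every array and none of their spots was saturated. Pairs of arrays had a Pearson's r of 0.965 to 0.997 within a group and 0.971 to 0.994 between groups. How precise any value is depends on the number of arrays.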

How the data were processed

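Agilent scanner files of 9 rat gene expression arrays were used. The raw spot intensity was made by the authors with Agilent Feature Extraction 10.7.3.1, and mean pixel values were deposited without background subtraction, beside a signal with the background removed. The authors' deposited table holds log2 values normalized between arrays. Mean intensity was log2 transformed and normalized by cyclic loess (limma 3.58.1, R 4.3.3), the steps that the study's methods name. Those methods do not say whether mean or another intensity was used. The 95th percentile of the negative controls, taken in log2 units and multiplied by 1.1, was the lower limit that a feature's log2 intensity had to pass on at least 4 arrays. Outlier spots were left out and spots of a feature averaged. Pearson's r with the deposited log2 values was 0.9999 or more on every array. The test was limma (lmFit, eBayes) over all 15837 features with Benjamini-Hochberg FDR, and exact permutation for the subunit pairs. The p-values measure the spread between these arrays.

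The genes, lists and pairs were chosen with earlier results of these data known, and Atp6v0d2 was named by the study from these arrays. All features of the 10 genes are reported, with the common form of each paired subunit. From each list the rule names the 3 smallest p and the brightest. It also names the 5 features most like the genes, among those outside the lists with an established gene name. For the distal convoluted and connecting tubule all tested genes are given. A gene that this rule names is not reported here. Gene names and rn4 positions are those of the files; 10 of 11 features had an accession in RefSeq's table of GRCr8 and 0 names had changed. Lists use the brightest feature of each gene. The study discarded a further MSC array for poor quality, and it is not among the samples. No deposited sample column was left unused (0 columns). The fit was tested on simulated data. Alternatives changed the intensity column, background, normalization, filter, features per gene, variance model, slide and array set.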

Additional observations from a re-analysis of the deposited data

Results flagged for a closer look

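Each group of arrays was checked for a single value far from the rest, by the gap to its nearest neighbour as a share of the group's range. In 22 groups (11 features, NP and MSC), 4 passed the 95% limit, where chance gives about 1.1. For Atp6v0d2, NP replicate 2 was low (11.32, share 0.769) and MSC replicate 4 was high (12.92, share 0.845). For Atp6v1b1, MSC replicate 3 was below the other MSC arrays by a share of 0.839, within a range of 13.67 to 13.72. For Car2, MSC replicate 4 was low (15.02, share 0.873), on the array where Atp6v0d2 was high.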

How the results depend on the processing

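Of 294 log2 fold changes of the 11 features under 27 alternatives, 291 kept their direction and their side of the FDR threshold, and no feature of the 10 genes was called under any (0 of 11). The median log2 fold change of the genes ran from 0.43 to 0.70. Within slide 2, Car2 became -0.0536 and Atp6v0a4 -0.0229. Atp6v1c2 ran from -0.0406, without MSC replicate 4, to 0.187, without NP replicate 2. Across the array, 2 features were called higher with array weights and 4 within slide 2. The count of the genes' features at an unadjusted p under 0.05 was 1 within slide 1, where 5 arrays remain, 5 within slide 2 and 4 with median scaling. In these settings 3.66%, 3.6% and 2.14% of all features were higher at that p. The count of features without overlap was 2 with 75th percentile scaling and 0 with median scaling. These counts at an unadjusted p and without overlap were added after the data had been seen.

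The pair of Atp6v1c2 turned to 0.0476 with the background-subtracted signal, to 0.00188 with quantile normalization and to 0.0420 with 75th percentile or median scaling, and ran from -0.135 to 0.129 with an array left out. With the background-subtracted signal the pair of Atp6v1b1 was 0.40 (exact p = 0.0556). With an array left out, the pairs ran from 0.32 to 0.53 for Atp6v0a4, 0.31 to 0.47 for Atp6v1b1, 0.40 to 0.59 for Atp6v0d2 and 0.63 to 0.93 for Atp6v1g3. With any 1 MSC array left out, the pairs of Atp6v0a4 and Atp6v1b1 had exact p-values above 0.05. For Atp6v1g3 this held with any 1 of NP replicates 2 to 5 or MSC replicates 2 to 4 left out. The causes were not tested.

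The labels do not say that the replicate numbers pair the arrays. Same-numbered arrays had correlations of their deviations of 0.197, 0.319, -0.352 and 0.0472. Different-numbered arrays were not compared, so these values cannot decide whether arrays are paired. With the replicate block, which drops NP replicate 5 for want of a partner, the median of the genes was 0.67, 6 features had an unadjusted p under 0.05 and 0 were called. With the background-subtracted signal, 3 features had no overlap, the smallest FDR of the genes was 0.460, and the second Foxi1 feature gave 0.60 in place of 0.18.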
